A study of Homo sapiens with 6 samples.

Results

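The genes described here are 9 oncofetal genes and genes whose mRNAs are reported to be bound by IGF2BP proteins: *IGF2BP1*, *IGF2BP2*, *IGF2BP3*, *LIN28A*, *LIN28B*, *HMGA1*, *HMGA2*, *CD44* and *MYC*. They were taken by gene symbol from a count table of 60480 gene identifiers. The table came from polyadenylated RNA of OE-19, an established human cell line of adenocarcinoma of the esophagogastric junction (AEG), grown in RPMI1640 medium with fetal bovine serum. It held 3 control knockdown libraries, whose columns are named Puro, and 3 libraries with knockdown of IGF2BP3 by short hairpin RNA (IGF2BP3 KD), the comparison with which the study asked what IGF2BP3 does in AEG cells. The sources used here do not say whether the 3 KD libraries carried the same hairpin, or whether the libraries of a group came from separate cultures, so the p-values measure the spread between these libraries, which may be technical. All libraries came from 1 cell line, and each value is an average over its cells, in which fewer expressing cells and less RNA per cell cannot be told apart.

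IGF2BP proteins bind mRNAs in the cytoplasm, among them mRNAs carrying N6-methyladenosine (m6A), and are known for protecting them from decay. Of the 3 family members, IGF2BP1 and IGF2BP3 are abundant in embryonic tissue, fall silent or low in most adult tissues and return in many tumors. This pattern is called oncofetal. LIN28A and LIN28B block the maturation of let-7 microRNAs, and let-7 represses *HMGA2*, the *LIN28* genes and *IGF2BP* mRNAs through sites in their 3′ UTRs. HMGA1 and HMGA2 are small chromatin proteins that bind AT-rich DNA. *MYC* encodes a transcription factor of growth and ribosome genes, and *CD44* encodes the hyaluronan receptor. Both mRNAs are among the reported targets of IGF2BP proteins.

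The let-7 sequences are shown first, since they link most of these genes. All 9 mature let-7 members compared from RefSeq (GRCh38.p14) have the same seed, bases 2 to 8, given in capitals for let-7a-5p, from chr9:94175962-94175983 on the plus strand, and let-7b-5p, from chr22:46113691-46113712 on the plus strand.
let-7a-5p: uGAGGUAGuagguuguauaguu
let-7b-5p: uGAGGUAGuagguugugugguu

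The letters opposite this seed, CTACCTC, were searched on the transcript strand of the 3′ UTR of each gene's canonical GENCODE transcript on hg38. They occurred in 7 of the 9 genes, with 4 matches each in *IGF2BP1*, *LIN28B* and *HMGA2* and 1 match each in *IGF2BP2*, *IGF2BP3*, *LIN28A* and *HMGA1*. The 3′ UTRs of *CD44* and *MYC* held none. For each gene the match nearest the stop codon is printed in transcript sense with the seed match in capitals. The windows lie at chr17:49051065-49051093 (plus strand) for *IGF2BP1*, chr3:185644210-185644238 (minus) for *IGF2BP2*, chr7:23311785-23311813 (minus) for *IGF2BP3*, chr1:26427352-26427380 (plus) for *LIN28A*, chr6:105078816-105078844 (plus) for *LIN28B*, chr6:34245833-34245861 (plus) for *HMGA1* and chr12:65963302-65963330 (plus) for *HMGA2*.
IGF2BP1: tgcgaagtaaaCTACCTCaaggtatgaag
IGF2BP2: cacagaagaagCTACCTCaggtgttttta
IGF2BP3: tttttactcaaCTACCTCaggtattcagt
LIN28A: agcctattgaaCTACCTCatttttgccaa
LIN28B: ggttgcaaagtCTACCTCatgcaagtata
HMGA1: ctgttcacaaaCTACCTCtggacagttgt
HMGA2: acgttcgatttCTACCTCagcagcagttg

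Among 13732 coding genes that were tested for a change and had a 3′ UTR of at least 50 bases, 11.1% held CTACCTC. The 9 genes had 3′ UTRs of 1347 bases (*HMGA1*) to 6701 bases (*IGF2BP1*), all longer than the median of 1286 bases, and a longer window holds any word more often. A match is a description of the letters, and let-7 itself was not measured in these libraries. Of the 1526 genes with the word, 15.8% were lower and 14.9% higher in IGF2BP3 KD, against 14.5% and 13.1% of all 13732 genes. The shorter word TGGAC, the core of a motif described for IGF2BP binding, occurred in the 3′ UTR of 8 of the 9 genes, *LIN28A* being the exception, and in 62.1% of the 13732 genes.

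The libraries held 53424071 to 69989087 counts, and mitochondrial genes took 8.672% to 9.055% of them. Levels are given as CPM, each library's counts scaled to a common total with TMM, and between genes as RPKM, the CPM per kilobase of all annotated exons of a gene. The line's epithelial markers were present in every library, with 18300 to 19300 CPM summed over 8 markers in the controls and 20000 to 20500 CPM in IGF2BP3 KD. Most of each sum was *ERBB2*, with means of 13100 CPM in the controls and 14300 CPM in IGF2BP3 KD. *ERBB2* and *EPCAM* were called higher (log2 fold changes 0.13 and 0.15), *KRT8* and *KRT18* lower (-0.06 and -0.07), and the other markers were not called. Defining markers of other cell types, *COL1A2* and *LUM* of fibroblasts and *CD3E* of T cells, had no counts in any library. The summed fibroblast markers were nevertheless higher in IGF2BP3 KD (29.6 to 34.1 CPM against 20.8 to 24.0 CPM), through *COL1A1* (30.8 against 21.7 CPM), and so were the summed immune markers (48.8 to 54.2 against 32.9 to 37.7 CPM), through *CD68* (51.9 against 35.8 CPM). Endothelial markers summed to at most 0.563 CPM. The part of these differences in the results below was not tested.

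The plot of levels by library orders the genes by family. In the control libraries, *HMGA1* was the most abundant of the 9 per length at 292 ± 8.3 RPKM (SD, n = 3). Averaged over all 6 libraries, it lay above 99.5% of the 19773 tested genes with a known exon length. In the controls *MYC* followed at 27.4 ± 0.968 RPKM. *IGF2BP3* came next at 12.7 ± 0.342 RPKM, and then *IGF2BP2* at 2.31 ± 0.224 RPKM. The remaining 5 genes lay far below. *CD44* (0.094 ± 0.0302 RPKM) and *HMGA2* (0.0856 ± 0.0216 RPKM) did not differ beyond their spread, and with the length of the canonical transcript in place of all exons their order turned, at 0.173 and 0.313 RPKM. *IGF2BP1* was at 0.0273 ± 0.0122 RPKM, and *LIN28A* and *LIN28B* were near 0. The line thus expressed 4 of the 9 genes at more than 1 RPKM and had few reads of the others.

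**Figure D1:**
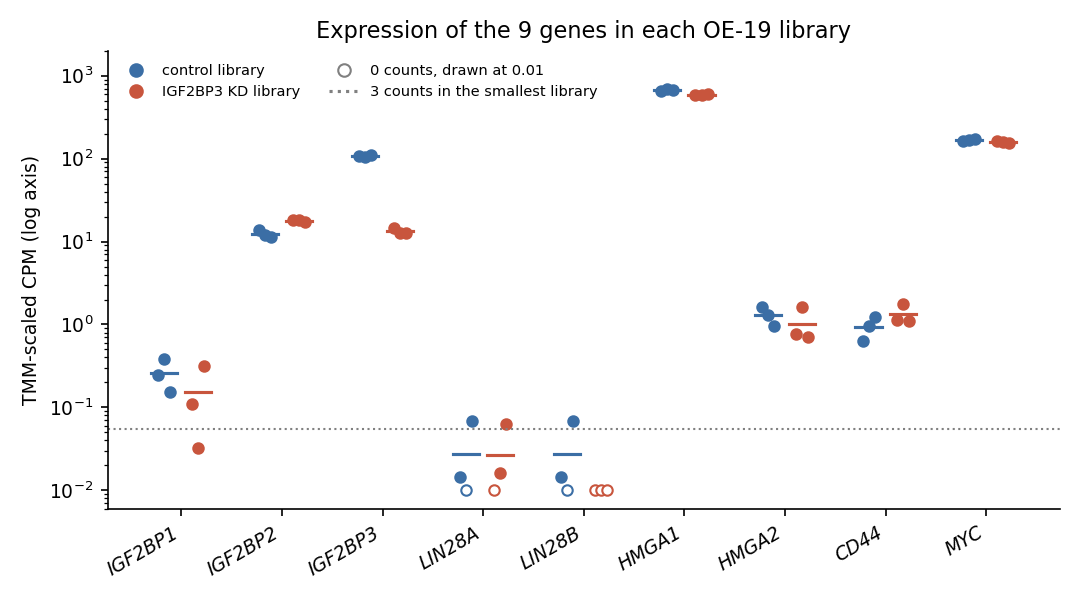
TMM-scaled CPM of the 9 genes in each library on a log axis, with control and IGF2BP3 KD libraries as separate points, libraries without a count drawn as open points at 0.01, and a dotted line at 3 counts in the smallest library. Only *IGF2BP3*, *IGF2BP2* and *HMGA1* have groups that do not overlap, and *LIN28A* and *LIN28B* lie at the bottom of the axis.

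Of the 9 genes, 7 passed the filter on low counts, *LIN28A* and *LIN28B* being left out. Of these 7, 2 were lower in IGF2BP3 KD (*IGF2BP3* and *HMGA1*), where 10.6% of all genes tested were called lower. The single gene called higher was *IGF2BP2*, where 9.87% of all genes were called higher. Together 3 of 7 were called, against 20.4% of all genes, and 3 of 7 had groups that did not overlap, against 35.8% of all genes. The called genes averaged 10 CPM or more, and 35.8% of the genes at that level were called. One of the 3, *IGF2BP3*, is the gene the hairpin targets. The median log2 fold change of the 7 was -0.20, and that of all genes tested was 0.01.

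**Figure D2:**
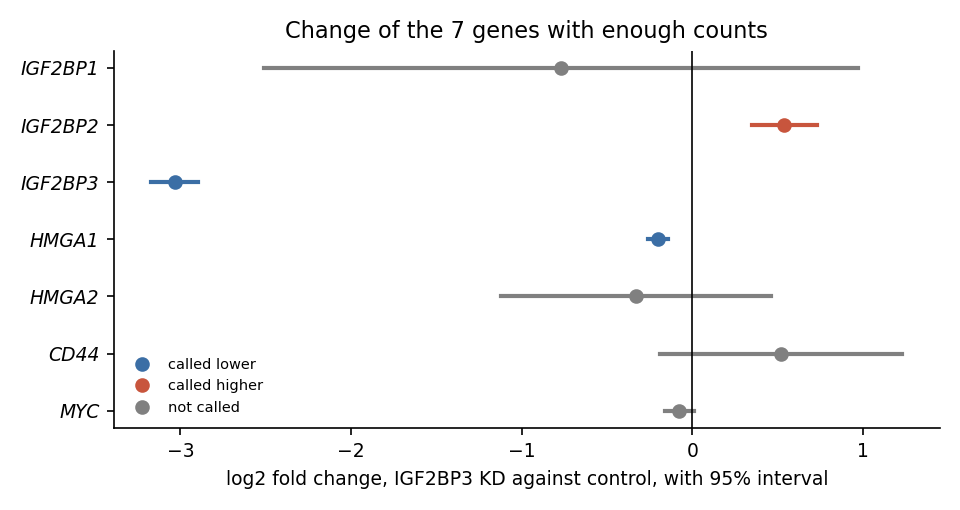
Log2 fold change of IGF2BP3 KD against control, with its 95% interval, for the 7 genes that passed the filter on low counts. *IGF2BP3* (-3.03) and *HMGA1* (-0.20) were called lower and *IGF2BP2* (0.54) higher, while the intervals of *IGF2BP1*, *HMGA2*, *CD44* and *MYC* hold 0.

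*IGF2BP3* (ENSG00000136231, hg38 chr7:23310209-23470491, minus strand) encodes the RNA-binding protein that was knocked down. It had 7416, 7363 and 6532 counts in control libraries 1, 2 and 3, and 777, 792 and 794 counts in the KD libraries. Every KD library lay far below every control library, so the target gene followed the labels. The level fell from 108 ± 2.92 CPM to 13.3 ± 0.996 CPM (SD, n = 3 each). This was 8.20-fold lower, with a 95% interval of 7.46 to 9.0 (log2 fold change -3.03, SE 0.06, adjusted p = 3.1e-10, edgeR quasi-likelihood test with Benjamini-Hochberg adjustment over all genes). About 0.101% of the genes tested had a larger log2 fold change in either direction. Counts assigned to the gene remained after knockdown, since 13.3 CPM rested on 2363 counts over the 3 KD libraries.

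*MALSU1*, a mitochondrial ribosome assembly gene on the opposite strand, shares 1521 bases with the exons of *IGF2BP3*, 17.82% of their length. The library kit keeps the strand, but the strand setting of the counting is not given in the sources used here. *MALSU1* had 2187, 1999 and 1608 counts in the controls and 943, 1161 and 1216 in IGF2BP3 KD. It too was lower, with a log2 fold change of -0.67 (SE 0.07, edgeR adjusted p = 8.6e-05). How far the counts of the 2 genes were kept apart, also among those left for *IGF2BP3* in IGF2BP3 KD, was not tested.

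*IGF2BP2* (ENSG00000073792, chr3:185643130-185825042, minus strand) was the next most abundant family member after *IGF2BP3* in the controls. It had 934, 826 and 666 counts in the controls and 978, 1119 and 1092 in IGF2BP3 KD. Scaled for depth these were 13.6, 11.9 and 11.4 CPM against 18.1, 18.0 and 17.3 CPM. The 3 KD libraries lay close together and above every control library, of which control 1 was the highest. The mRNA rose 1.45-fold, with a 95% interval of 1.27 to 1.65 (log2 fold change 0.54, SE 0.09, edgeR adjusted p = 0.0011). A larger absolute log2 fold change was found in 15.7% of the genes tested. No annotated exon of another gene overlaps its exons, and the antisense gene *IGF2BP2-AS1* had 8 counts in 1 KD library and none elsewhere.

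*IGF2BP1* (ENSG00000159217, chr17:48997385-49056145, plus strand), a stabilizer of *MYC* mRNA in other cells, had 17, 27 and 9 counts in the controls and 6, 2 and 20 in IGF2BP3 KD. The groups overlapped, and KD library 3 exceeded 2 of the 3 controls. The log2 fold change was -0.77 (SE 0.79, 95% interval -2.51 to 0.97, edgeR adjusted p = 0.58). In folds the interval ran from 0.176 to 1.96, so a change was not detectable at this depth.

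Per length, the 3 *IGF2BP* genes together fell from 15 ± 0.345 RPKM to 4.91 ± 0.172 RPKM, and their order turned. *IGF2BP3* made up 84.5% ± 1.40 of the summed RPKM in the controls and 31.6% ± 1.32 in IGF2BP3 KD. *IGF2BP2* went from 15.3% ± 1.37 to 68.1% ± 1.32, and *IGF2BP1* stayed under 1% in every library. In RPKM, *IGF2BP3* was 5.51 times *IGF2BP2* in the controls, and *IGF2BP2* was 2.15 times *IGF2BP3* in IGF2BP3 KD. The gain of *IGF2BP2*, 1.04 RPKM, equaled 9.31% of the 11.2 RPKM by which *IGF2BP3* fell. These ratios depend on the exon length used: with the canonical transcripts, a comparison added after the data were seen, the ratio in IGF2BP3 KD was 1.34, the ratio in the controls 8.85 and the gain 5.80% of the loss. Under either length *IGF2BP2* was the more abundant of the pair after knockdown.

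**Figure D3:**
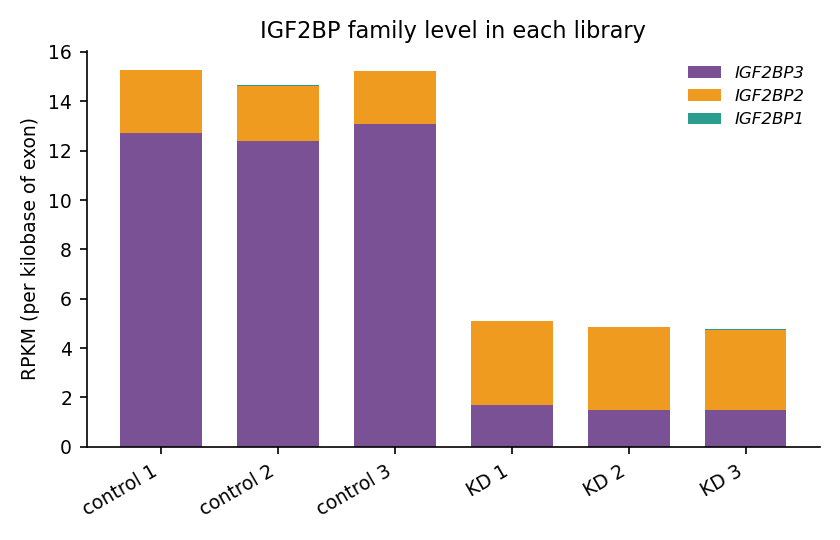
Stacked RPKM of *IGF2BP1*, *IGF2BP2* and *IGF2BP3* in each of the 6 libraries. The total is 14.6 to 15.3 RPKM in the controls and 4.76 to 5.10 RPKM in IGF2BP3 KD, *IGF2BP3* takes most of the bar in each control library and *IGF2BP2* most of it in each KD library.

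*LIN28A* (ENSG00000131914, chr1:26410817-26429728, plus strand) had 1, 0 and 4 counts in the controls and 0, 1 and 4 in IGF2BP3 KD. *LIN28B* (ENSG00000187772, chr6:104936616-105083332, plus strand) had 1, 0 and 4 counts in the controls and none in IGF2BP3 KD. Neither LIN28 mRNA was above a trace in either group. A count of 0 allows up to 3 counts, or 0.0431 to 0.0556 CPM in a library and 0.0168 CPM over the 3 KD libraries, counting error only. With 5 counts against a limit of 3, a difference in *LIN28B* was not detectable at this depth.

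*HMGA1* (ENSG00000137309, chr6:34236873-34246231, plus strand) had 45208, 48672 and 39834 counts in the controls and 32017, 35949 and 38166 in IGF2BP3 KD. In CPM these were 660, 699 and 680 against 593, 579 and 606. The highest KD library lay below the lowest control. *HMGA1* fell 1.15-fold, with a 95% interval of 1.10 to 1.20 (log2 fold change -0.20, SE 0.03, edgeR adjusted p = 0.00045). It is a small change of an abundant mRNA, and 48.3% of the genes tested had a larger absolute log2 fold change. The 8 annotated pseudogene copies of *HMGA1* held 564 counts in all, 0.235% of those of *HMGA1*.

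*HMGA2* (ENSG00000149948, chr12:65824460-65966291, plus strand), the classical let-7 target, had 110, 91 and 56 counts in the controls and 41, 100 and 44 in IGF2BP3 KD. These were 1.61, 1.31 and 0.956 CPM against 0.76, 1.61 and 0.698 CPM. KD libraries 1 and 3 lay below all controls, while KD library 2 matched the highest control. The log2 fold change was -0.33 (SE 0.36, 95% interval -1.12 to 0.46, edgeR adjusted p = 0.60), and without KD library 2 it was -0.82 with an adjusted p of 0.14 in the same edgeR test. *HMGA2* made up 0.0294% ± 0.00794 of the *HMGA* family's RPKM in the controls, where *HMGA1* was 3410 times as abundant. Both values depend on the exon length used. With the canonical transcripts the ratio was smaller, at 354 RPKM of *HMGA1* against 0.313 RPKM of *HMGA2* in the controls.

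*MYC* (ENSG00000136997, chr8:127735434-127742951, plus strand) had 11085, 11597 and 10167 counts in the controls and 8886, 9779 and 9692 in IGF2BP3 KD. In CPM these were 162, 166 and 174 against 165, 158 and 154. The groups overlapped, KD library 1 lying between the controls. The log2 fold change was -0.08 (SE 0.04, 95% interval -0.16 to 0.01, edgeR adjusted p = 0.20). With this many reads a fall below 0.895-fold lay outside the interval, and 77.0% of the genes tested had a larger absolute log2 fold change. *CASC11*, which shares 194 exon bases with *MYC* on the opposite strand, had at most 31 counts in a library.

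*CD44* (ENSG00000026508, chr11:35138882-35232402, plus strand) had 43, 67 and 72 counts in the controls and 61, 111 and 70 in IGF2BP3 KD. These were 0.628, 0.962 and 1.23 CPM against 1.13, 1.79 and 1.11 CPM. KD library 2 was the highest of all, and the other KD libraries lay within the control range. The log2 fold change was 0.52 (SE 0.32, 95% interval -0.19 to 1.23, edgeR adjusted p = 0.32). Its level exceeded that of 8.64% of the genes tested, so there was little *CD44* mRNA in either group.

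**Figure D4:**
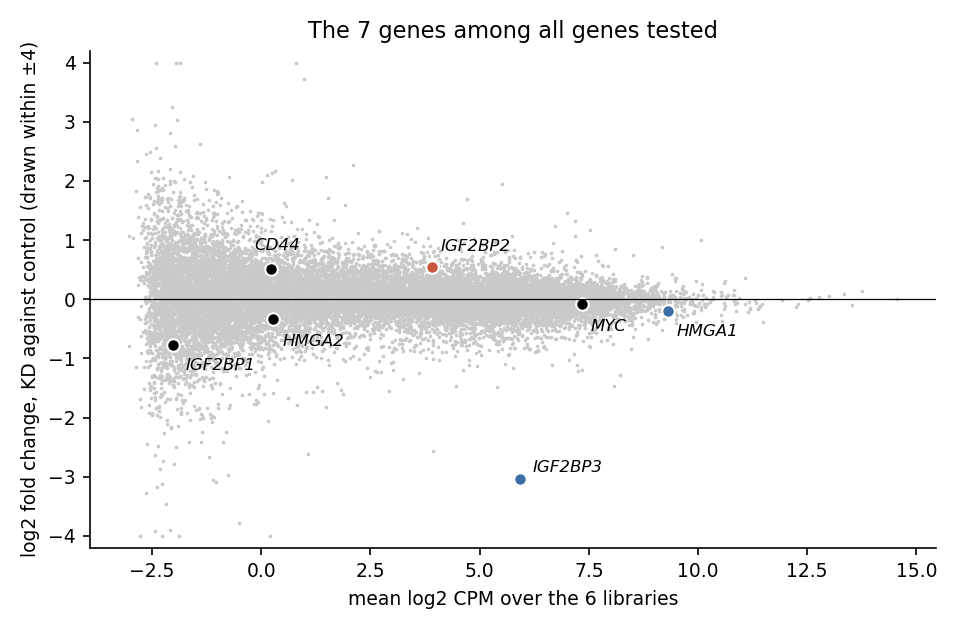
Log2 fold change (KD against control, drawn within 4 units of 0) against mean log2 CPM for all 19778 genes tested, with the 7 tested genes of the set labelled. *IGF2BP3* stands at -3.03 far below the cloud, *HMGA1* and *MYC* sit close to 0 at high abundance, and *IGF2BP1*, *HMGA2* and *CD44* lie at the thinly counted end.

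The share of genes called rose with abundance. Of the 9857 genes averaging 10 CPM or more, 19.3% were called lower and 16.5% higher, and of the 2247 genes with at least 100 CPM, 30.5% and 21.0%. In 6 of the 7 lists below most tested genes averaged 10 CPM or more, and these shares stand beside their counts. Among the other oncofetal and germ cell genes 4 of 15 did, and the shares over all genes tested stand beside that list.

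Other mRNAs reported to be bound by IGF2BP proteins moved both ways. Of 16 listed, 14 were tested, 3 were lower (21.4%), 4 were higher (28.6%), and their median log2 fold change was 0.08. Genes averaging 10 CPM or more were lower in 19.3% and higher in 16.5%, and those with at least 100 CPM in 30.5% and 21.0%. *CCND1*, cyclin D1, fell from 385 ± 8.62 to 344 ± 7.5 CPM (log2 fold change -0.16, SE 0.03, edgeR adjusted p = 0.0019), and *ACTB*, the founding target of the family, fell by 0.11 on the log2 scale. *CCNG1*, cyclin G1, rose from 40.0 ± 3.62 to 61.9 ± 1.47 CPM (0.63, SE 0.06, edgeR adjusted p = 5.1e-05), and the kinase *CDK6* rose by 0.10. *IGF2*, for which the family is named, was at 0.277 ± 0.124 CPM in the controls and 0.355 ± 0.183 CPM in IGF2BP3 KD, and was not called.

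Genes of let-7 processing and LIN28 partners were called in 1 direction. Of 15 tested, 5 were lower (33.3%) and none higher. Of genes averaging 10 CPM or more, 19.3% were lower and 16.5% higher, and of those with at least 100 CPM, 30.5% and 21.0%. The list's median log2 fold change was -0.17. *AGO2*, the slicing Argonaute protein that carries microRNAs, fell from 191 ± 5.23 to 142 ± 3.72 CPM (-0.43, SE 0.03, edgeR adjusted p = 8.3e-06). *DICER1*, the enzyme that cuts the let-7 precursor, fell from 115 ± 4.86 to 86.1 ± 4.37 CPM (-0.41, SE 0.05, edgeR adjusted p = 1.1e-04), and *HNRNPA1*, an RNA-binding protein that acts on let-7 precursors, by 0.24 on the log2 scale. The terminal uridylyl transferases that LIN28A recruits, *TUT4* (0.08) and *TUT7* (-0.07), were not called. *MIRLET7BHG*, a host transcript of let-7 genes, was at 2.06 ± 0.443 and 1.59 ± 0.359 CPM (-0.37, SE 0.25, edgeR adjusted p = 0.37).

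Among reported let-7 targets outside the 9 genes, 7 of 26 tested fell (26.9%) and 1 rose, beside 19.3% and 16.5% of genes averaging 10 CPM or more. The median log2 fold change of the list was -0.04. *PLAGL2*, a zinc finger transcription factor, fell from 65.9 ± 1.17 to 41.1 ± 0.485 CPM (-0.68, SE 0.05, edgeR adjusted p = 2.2e-06), and *DICER1* stands in this list too. The gene called higher was *CDK6*.

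A further word was counted in these lists. GATTACT, found in the 3′ UTR of 7.80% of the 13732 coding genes, occurred in 12 genes of the 7 lists. Of these, 9 were lower (among them *AGO1*, *AGO2*, *CCND1*, *CDK4*, *DICER1*, *MXD1*, *PLAGL2* and *TGFBR1*), 1 was higher, and *IGF1R* and *MYCL* were not called. Of all coding genes with GATTACT, 35.1% were lower and 6.72% higher, and their log2 fold changes had a median of -0.14, against 14.5% lower and 13.1% higher with a median of 0 over the 13732 genes. Genes with ACACATC, 9.66% of all, went the other way, 10.7% being lower and 28.1% higher. Both words were first noticed in these data, and their part in the changes of the listed genes was not tested. Among the 9 genes, GATTACT occurred in *LIN28B* alone and ACACATC in *HMGA2* and *CD44*.

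Other oncofetal and germ cell genes gave 2 lower and 1 higher of 15 tested, beside 10.6% lower and 9.87% higher of all genes, with a median log2 fold change of 0.16. *CEACAM5*, the carcinoembryonic antigen, fell from 263 ± 11.1 to 219 ± 5.1 CPM (-0.26, SE 0.04, edgeR adjusted p = 3.4e-04), and its relative *CEACAM6* by 0.06 on the log2 scale. *PEG10*, an imprinted gene derived from a retrotransposon, rose from 25.7 ± 2.18 to 42.0 ± 0.812 CPM (0.71, SE 0.07, edgeR adjusted p = 3.0e-05). *SALL4*, a stem cell factor of fetal liver, was at 0.367 ± 0.117 and 0.525 ± 0.114 CPM and was not called.

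Around *MYC*, partners and antagonists gave 3 lower (16.7%) and 4 higher (22.2%) of 18 tested, beside 19.3% and 16.5% of genes averaging 10 CPM or more. The median log2 fold change of this list was 0.08. *MAX*, the obligate partner of MYC, was at 32.7 ± 1.20 and 35.0 ± 0.952 CPM and was not called. Of the antagonists that compete for MAX, *MXD1* fell from 41.9 ± 2.63 to 30.7 ± 1.32 CPM and *MXI1* rose from 26.4 ± 1.15 to 39.6 ± 2.13 CPM (0.58, SE 0.06, edgeR adjusted p = 6.5e-05). *PVT1*, the noncoding neighbor of *MYC*, fell from 25.6 ± 1.30 to 17.6 ± 0.743 CPM (-0.54, SE 0.07, edgeR adjusted p = 2.1e-04). The histone acetyltransferase adaptor *TRRAP* fell by 0.14, while *MLXIP* (0.16), a glucose-responsive transcription factor, and *HUWE1* (0.12), a ubiquitin ligase for MYC, were higher.

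MYC target genes were lower more often than higher, 15 of 32 tested against 1, while *MYC* mRNA itself was not called. Their median log2 fold change was -0.12, and 46.9% of them were lower. Among genes averaging 10 CPM or more this share was 19.3%, and among those with at least 100 CPM 30.5%. *NOP56*, a core protein of box C/D ribonucleoproteins, fell from 161 ± 4.24 to 102 ± 1.56 CPM (-0.67, SE 0.03, edgeR adjusted p = 4.1e-07). *CDK4*, a G1 kinase, fell from 80.2 ± 0.885 to 56.1 ± 1.81 CPM (-0.51) and *E2F1*, an S-phase transcription factor, from 52.7 ± 2.34 to 35.2 ± 2.17 CPM (-0.58). *NME1*, a nucleoside diphosphate kinase, was the 1 gene higher (0.16, SE 0.03, edgeR adjusted p = 0.0063). The 15 range from nucleolar genes to cell cycle genes. This list, like the others, was chosen with earlier results of these data known, and no list test was run.

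Around *CD44*, 8 of 21 genes tested fell (38.1%) and 1 rose, beside 19.3% and 16.5% of genes averaging 10 CPM or more. The median log2 fold change of the list was -0.14. *CEMIP2*, a cell-surface protein tied to hyaluronan breakdown, fell from 805 ± 7.9 to 642 ± 2.61 CPM (-0.33, SE 0.02, edgeR adjusted p = 1.7e-06). The receptor kinase *MET* fell by 0.17 and the sheddase *ADAM17* by 0.22 on the log2 scale. *MMP14*, a membrane protease that cleaves CD44, rose from 24.5 ± 1.88 to 29.2 ± 1.44 CPM (0.25). *ESRP1*, a splicing factor that controls the variable exons of *CD44*, was at 306 ± 10.0 and 297 ± 4.22 CPM and was not called. *IGF2*, *TUT4*, *TUT7*, *MIRLET7BHG*, *SALL4*, *MAX* and *ESRP1* were named for their roles after their values were seen.

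**Figure D5:**
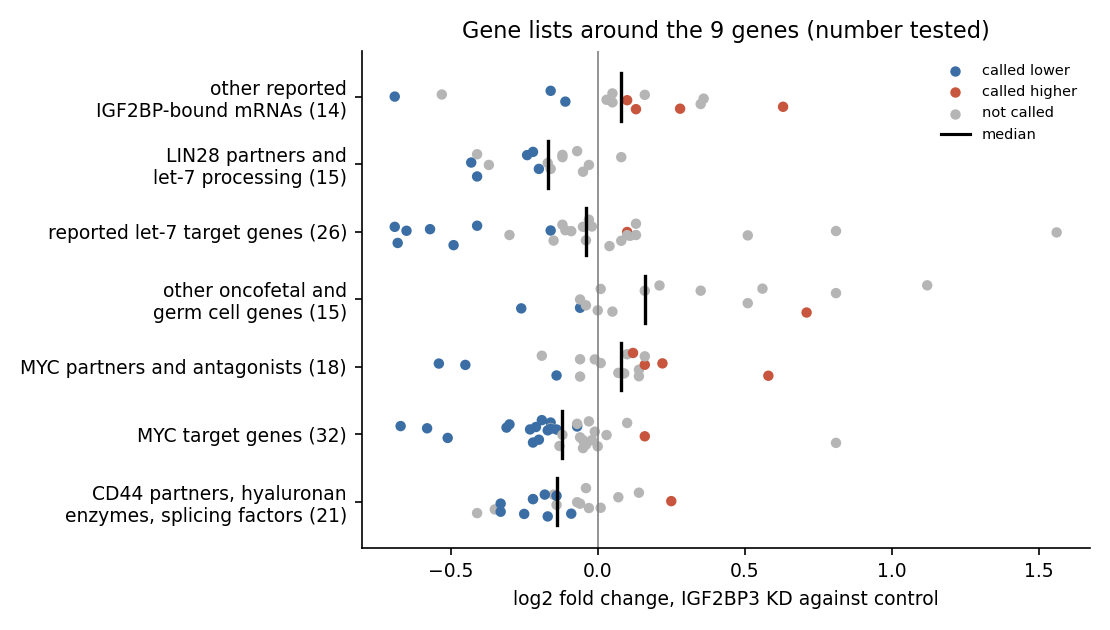
Log2 fold change of each tested gene in 7 gene lists around the 9 genes, colored by call, with the median of each list as a line. MYC target genes show the most genes called lower (15 of 32), and no gene of let-7 processing was called higher.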

How the data were processed

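RNA of OE-19 cells was sequenced by the authors on an Illumina NovaSeq instrument as paired 150-base reads after library preparation with a directional NEBNext kit. Per the labels, reads were handled with fastp, aligned to hg38 with HISAT2 and counted with featureCounts. Versions, the annotation release and the strand setting are not given in the sources used here. The deposited values were raw counts per gene. Repeated entries of 44 identifiers (132 entries) were left out.

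Genes passing filterByExpr (minimum count 10, minimum total 15) entered the quasi-likelihood test of edgeR 4.0.16 (R 4.3.3) with TMM scaling, no covariates, Benjamini-Hochberg adjustment over 19778 genes, threshold 0.05. The method was tested on simulated data. DESeq2 1.42.0, other scaling and filters, a replicate block, leaving out each library and coding genes alone were alternatives. Positions, exon lengths and 3′ UTRs came from GENCODE v44 on hg38, and microRNAs from RefSeq. Exon length was known for 99.97% of tested genes. As a check for a library deposited more than once, libraries of one group were compared, and all pairs differed beyond counting noise (chi-square per degree of freedom 9.86 to 17.6), which does not show that they are independent cultures. The genes and lists were chosen with earlier results of these data known. Named were all 9 genes, up to 3 called genes per list and direction with the smallest p, the 3 genes most like each tested gene over the libraries, and genes sharing exons with them. Lists were described by counts and medians, without a list test. Some genes that this rule names are not reported here.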

Additional observations from a re-analysis of the deposited data

How the results depend on the processing

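All 7 tested genes kept their direction in each alternative that gave them a value, and their side of the threshold in each that gave them an adjusted p. The calls among the 9 genes stayed at 2 lower and 1 higher in all 12. *IGF2BP3* ranged from -3.10 to -3.00, *HMGA1* from -0.22 to -0.18 (adjusted p up to 0.0041) and *IGF2BP2* from 0.48 to 0.61 (adjusted p up to 0.0082) on the log2 scale. The uncalled genes moved more when 1 library was left out: *IGF2BP1* from -1.87 to -0.29, *HMGA2* from -0.82 to -0.12 and *CD44* from 0.26 to 0.75. *IGF2BP1* was not tested with at least 10 counts required in every library, and DESeq2 gave it no adjusted p. *MYC* stayed between -0.11 and -0.05. Over all genes, 1641 to 1970 were lower and 1414 to 1741 higher when a library was left out, and DESeq2 called 2416 lower and 2074 higher. With a replicate block 2026 were lower and 1875 higher, and the 9 genes kept their 2 lower and 1 higher. Same-numbered libraries did not deviate together (correlations of -0.0512 to -0.0171 over 14289 genes), so the numbers showed no pairing in expression. Whether same-numbered libraries were prepared together is not given in the sources used here. The ratio of *IGF2BP2* to *IGF2BP3* per length in IGF2BP3 KD moved from 2.15 to 1.34 with canonical transcript lengths. Depth limits *LIN28A*, *LIN28B*, *IGF2BP1*, *HMGA2* and *CD44*, and groups of 3 limit the precision of every interval.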

Other observations

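The genes whose TMM-scaled log2 CPM followed each tested gene most closely over the 6 libraries were sought among 14287 genes averaging 1 CPM or more. With 6 points in 2 groups, high correlations are frequent for any gene that differs between the groups, and they are given as a description. For *IGF2BP3* these were *NFYA* and *TACC1* (Pearson's r = 1.0 after rounding) and *MAPKAP1* (0.999), with log2 fold changes of -0.79, -0.92 and -0.69. For *IGF2BP2* they included *CAPN7* and *ZDHHC20* (0.998 each). *HMGA1* was followed by *RECQL4* and *ADRM1* (0.998 each) and *UBE2S* (0.997), and *MYC* by *LOXL3* (0.991), *EEF1D* (0.99) and *RGL1* (0.982). For the thinly counted genes the closest were *CMTM7* (0.991) for *IGF2BP1*, *FAM174A* (0.993) for *HMGA2* and *LRTOMT* (0.993) for *CD44*.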
